A study of Brassica oleracea with 15 samples.

Results

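The genes described here had a shifted signal in every stimulated flank of the bending Brassica oleracea hypocotyl, whichever stimulus was given and whichever side of the stem was sampled. A probe set, the group of probes that reads out 1 gene on the array, was a member when its 4 stimulated group means all lay at least 0.5 log2 above the control mean, or all at least 0.5 log2 below it. Its mean log2 signal over the 15 arrays also had to reach 8.28, close to the median of all probe sets. Of the 11368 probe sets past that brightness limit, among 22746 in all that were not Affymetrix controls, 230 were members on the higher side and 78 on the lower side. Left out by the same rule were organelle-encoded genes, RCA, PRK, HCF101, AT5G45670, and the XTH and expansin genes. In all, 7 probe sets that met the differences were removed in this way, psbD on the higher side and nad4, rpl14, rps2, psbM and 2 probe sets with several symbols on the lower side, all organelle-encoded.

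Seedlings were 3 days old, wild type and grown in the dark, and all groups shared these conditions. They received blue light from 1 side for 2 h, were gravity-stimulated for 2 h, or were mock-treated, and about 100 seedlings made up each pool. The hypocotyl, the stem below the cotyledons, was cut lengthwise so that the outer part of each flank was separated from the vascular core, and flank pieces were about 1 cm long. Blue light gave a shaded and a lit flank, gravity stimulation gave a bottom and a top flank, and mock-treated seedlings gave the control flanks, with 3 arrays for each of these 5 groups. In a pool of tissue, more cells of a type cannot be told apart from more RNA per cell. The labels give no day of growth or harvest, so any batch that followed the stimulation cannot be told apart from it.

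When a shoot bends towards light or away from gravity, auxin collects on the shaded or lower side, and the cells of that flank elongate more than those opposite. Genes that separate the flanks are the usual object of such an experiment. A gene shifted alike on both flanks and under both stimuli does not follow that asymmetry. Blue light is sensed by phototropins and cryptochromes and also starts greening, whereas gravity is sensed through sedimenting starch grains in the endodermis.

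The Affymetrix signals were scaled so that every array had a trimmed mean of 500, with medians between 332.2 and 358.3 signal units. The cRNA came from Brassica and the probes from Arabidopsis thaliana, so a signal also depends on how well a transcript matches its probes, and no gene's signal is compared with another gene's. Between arrays of 1 group the median correlation of log2 signal over probe sets was 0.841, against 0.831 between a control and a stimulated array and 0.823 between arrays of different stimulated groups. Of the tissue markers listed, all 4 of 4 tested probe sets for photosynthetic tissue lay above the control, with a median shift of 0.38 log2. No vascular marker was past the brightness limit. 1 epidermal marker and 2 root markers were past it, with medians of 0.17 and 0.13, and no marker was a member. Their part in the members' shifts was not tested. The labelled hypocotyl has no defining marker among these lists, so the tissue itself was not checked by expression.

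The shift of a member is given below as the mean of the 4 stimulated group means minus the control mean, on the log2 scale, and the pooled SD is that of the log2 signals within the 5 groups. The members were chosen by these differences, so the shifts are a description and carry no test. Before the named exclusions 231 of 11368 probe sets (2.03%) met the rule on the higher side and 84 (0.739%) on the lower side. The higher members had a median shift of 0.95 log2, with a range of 0.58 to 4.13. Their median differences from the control were 0.91 in the shaded, 0.96 in the lit, 0.92 in the bottom and 0.93 in the top flanks. The top flank was the most shifted of the 4 groups for 73 of them, the lit flank for 59, the bottom flank for 54 and the shaded flank for 44. The lower members had a median shift of -0.85 log2, from -1.84 to -0.54. Their median differences were -0.72 in the shaded, -0.81 in the lit, -0.80 in the bottom and -0.88 in the top flanks. The largest shift fell in the lit flank for 23 lower members, in the bottom and the top flanks for 22 each and in the shaded flank for 11. The 4 group differences of a member spread over a median of 0.48 log2 on the higher side and 0.51 on the lower side. They lay within 0.25 log2 of each other for 39 higher and 13 lower members.

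Of the 230 higher members, 128 carried 1 gene symbol, 4 several and 98 none, and of the 78 lower members 31 carried 1, 7 several and 40 none. Only probe sets with 1 symbol are named by gene, as Arabidopsis loci or symbols, and an unnamed probe set is given by its array identifier. The smallest of a member's 4 differences was at least 1 log2 for 33 higher and 3 lower members, and between 0.5 and 0.6 for 82 and 51.

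**Figure D1:**
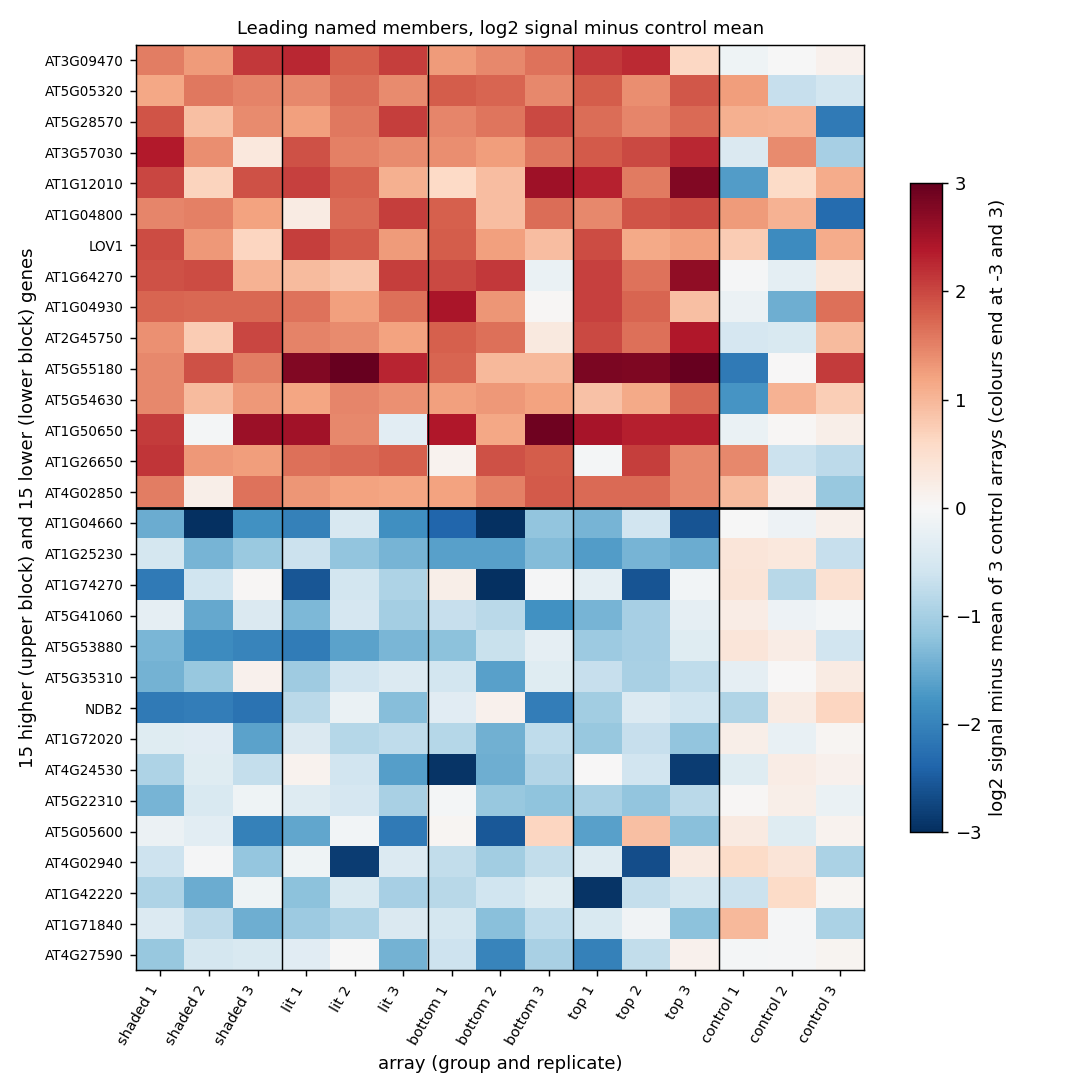
Each row is 1 of the 15 leading named members in either direction and each column 1 of the 15 arrays; colour is log2 signal minus the mean of the 3 control arrays. The 12 stimulated columns are mostly red in the upper block and blue in the lower block, and single control arrays stand out in several rows, such as control 3 in AT5G28570 and AT1G04800 and control 2 in LOV1.

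Among the higher members, AT3G09470, which codes for an UNC-93-like membrane transporter, had the largest least difference of the named genes. Its signal was 499.4, 419.8 and 749.1 in shaded, 828.0, 597.9 and 728.0 in lit, 416.9, 466.8 and 537.1 in bottom and 748.1, 820.2 and 268.0 in top flanks, against 158.8, 171.6 and 189.6 in control flanks. Every stimulated array lay above every control array, the lowest being 1 top array. The shift was 1.70 log2, or 3.25-fold, with a pooled SD of 0.47. A dimmer probe set of the same gene, below the brightness limit, lay at -0.30.

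ALDH22A1, an aldehyde dehydrogenase gene, had signals of 443.3, 340.2 and 374.5 in shaded, 397.6, 529.6 and 512.9 in lit, 659.0, 614.7 and 544.0 in bottom and 588.9, 563.3 and 571.6 in top flanks, against 201.8, 329.9 and 131.4 in control flanks. The arrays of the stimulated and control flanks did not overlap, but the lowest shaded array came close to the highest control array. Its shift was 1.28 log2, with a pooled SD of 0.33, and ran from 0.90 in the shaded to 1.55 in the bottom flank. ALDH11A3, which codes for a glyceraldehyde-3-phosphate dehydrogenase of the same superfamily, measured 543.9 to 958.3 (median 722.3) over the 12 stimulated arrays, against 485.8, 373.2 and 385.7 in the controls. It too showed no overlap, with a shift of 0.85 log2 and a pooled SD of 0.21. AT1G01800, a gene of the short-chain dehydrogenase family, had 1106.3, 978.9 and 1279.8 in shaded, 1423.8, 829.4 and 1093.6 in lit, 860.0, 809.4 and 968.9 in bottom and 1411.3, 1375.0 and 1398.1 in top flanks, against 441.3, 764.2 and 360.6 in control flanks. The top arrays were the most alike of any group, and no stimulated array fell to the level of the highest control array. The shift of AT1G01800 was 1.16 log2, with a pooled SD of 0.32.

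BZIP60, the transcription factor of the endoplasmic reticulum stress response that is switched on by splicing of its RNA, was higher in all 4 stimulated groups. It measured 652.9, 511.9 and 560.4 in shaded, 230.5, 349.6 and 211.5 in lit, 687.5, 561.9 and 342.2 in bottom and 335.6, 351.8 and 190.6 in top flanks, against 167.3, 135.1 and 118.4 in control flanks. No stimulated array overlapped the controls. The differences from the control were 2.04 and 1.88 log2 in the shaded and bottom flanks and 0.89 and 1.02 in the lit and top flanks. The contrast of shaded and bottom against lit and top, which the rule did not use, was 1.00 log2 with a standard error of 0.29 and an adjusted p of 0.22 by limma over all 11368 probe sets, and it did not pass the threshold.

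**Figure D2:**
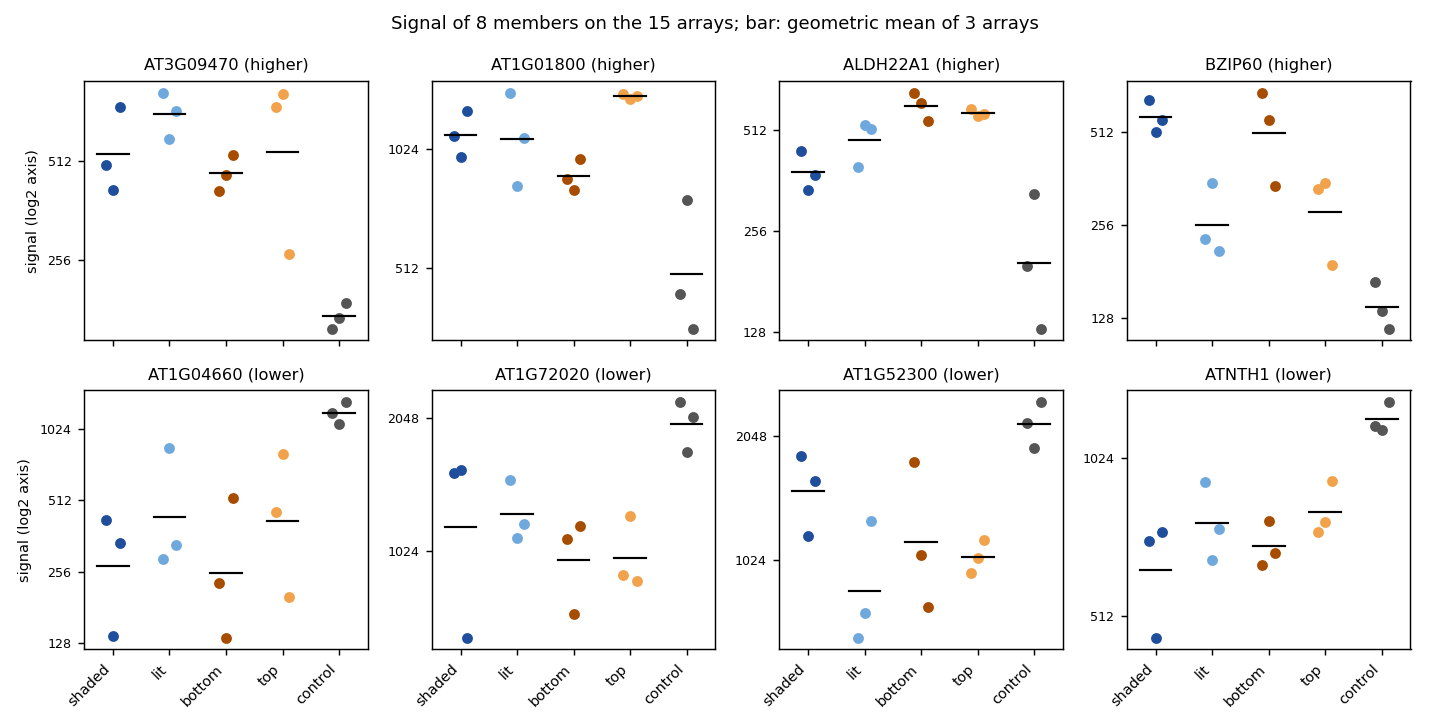
Signal of 4 higher and 4 lower members on every array, on a log2 axis; points are the 3 arrays of each group and the bar is their geometric mean. In all 8 panels the stimulated points lie on 1 side of the control points, and the BZIP60 means of shaded and bottom flanks lie above those of lit and top flanks, a difference that did not pass limma's threshold.

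For 26 of the 230 higher members (11.3%) all 12 stimulated arrays lay above all 3 control arrays, and 48 of 11368 probe sets (0.422%) did so. The rule chose on the same arrays, so the 2 shares are not comparable. Of these 26, 13 are named. Besides AT3G09470, ALDH22A1, ALDH11A3, AT1G01800 and BZIP60 they are AT2G14520, AT5G22620, AT3G42630, AT1G56350, AT5G53010, ALPHA-VPE, AT5G25400 and AT1G11440. The shift of AT5G53010, 0.72 log2, was 0.36 without control 1. ALPHA-VPE, a vacuolar processing enzyme that matures proteins in the vacuole, had the tightest replicates of those described here. It measured 726.1, 769.2 and 939.0 in shaded, 1004.2, 690.1 and 1023.1 in lit, 763.3, 722.1 and 622.4 in bottom and 811.6, 754.6 and 780.0 in top flanks, against 481.3, 498.4 and 463.4 in control flanks. The controls were the lowest 3 of the 15 arrays and close to each other. The shift was 0.72 log2 with a pooled SD of 0.18. AT5G22620, of the phosphoglycerate mutase family, ranged widely within groups, at 178.2 to 807.8 (median 417.8) over stimulated arrays, against 130.4, 152.8 and 159.5 in controls. Its arrays also did not overlap, and the lowest stimulated array was a lit one.

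ALPHA-VPE, BZIP60, ALDH22A1, ALDH11A3 and AT1G01800, and the genes in the next paragraphs outside the 15 leading ones, were chosen for their known roles or their lack of overlap after the values were seen. Other protease genes among the higher members were the subtilases AT3G14067, ATSBT5.2 and AT5G59100, the papain-type AT4G16190 and the serine carboxypeptidase-like scpl35. AT5G59100 measured 665.8, 642.1 and 772.9 in shaded, 706.9, 535.3 and 625.3 in lit, 576.5, 765.6 and 673.9 in bottom and 753.2, 445.1 and 699.5 in top flanks, against 474.6, 360.1 and 350.6 in control flanks. Only its lowest top array fell below the highest control array. Its shift was 0.73 log2, with a pooled SD of 0.26. AT3G14067 (1.00 log2), ATSBT5.2 (1.16 log2), AT4G16190 (0.76 log2) and scpl35 (1.39 log2) all had overlapping arrays. Without control 3, AT3G14067 had 0.33 and ATSBT5.2 had 0.46; without control 2, ATSBT5.2 had 1.85. On the lower side the related SCPL45 was among the 3 members nearest the limit: it was -0.50 log2 in the shaded but -2.56 in the bottom flank.

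The ethylene genes named among the members were both on the higher side. AT1G12010, which codes for an ACC oxidase, the enzyme of the last step of ethylene synthesis, measured 935.4, 369.4 and 876.7 in shaded, 958.9, 790.4 and 486.8 in lit, 351.5, 442.8 and 1356.0 in bottom and 1163.0, 691.3 and 1604.7 in top flanks, against 72.9, 344.5 and 503.1 in control flanks. The controls spread widely, control 1 being far below the others, and control 3 was above 4 stimulated arrays. The shift was 1.68 log2, with a pooled SD of 0.94, and was 0.84 without control 1. RTE1, a membrane protein that acts with the ethylene receptor ETR1 to hold back the response, measured 492.4 to 1551.9 (median 853.8) over stimulated arrays, against 414.6, 494.6 and 194.9 in controls. Only 1 shaded array fell just below the highest control. Its shift was 1.29 log2, with 0.82 in the shaded, 1.58 in the lit, 1.16 in the bottom and 1.60 in the top flanks. RTE1 was the single member among 3 tested probe sets of the ethylene list, whose median shift was 0.15 log2; AT1G12010 carries no ethylene symbol in the array's annotation and was outside that list.

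AT5G55180, a glycosyl hydrolase of family 17, the family of plant beta-1,3-glucanases, had 998.5, 1393.9 and 1067.1 in shaded, 2525.5, 2955.4 and 1792.8 in lit, 1247.8, 729.4 and 729.0 in bottom and 2625.4, 2582.6 and 3765.7 in top flanks, against 85.7, 370.7 and 1595.4 in control flanks. The lit and top flanks were the highest, and control 3 lay above every shaded and bottom array. The shift of 2.13 log2 (pooled SD 0.99) became 3.19 without control 3 and 1.08 without control 1. AT1G50650, of the Stig1 family of small secreted cysteine-rich proteins, had 683.4, 155.3 and 946.9 in shaded, 926.2, 438.6 and 129.6 in lit, 851.9, 360.2 and 1224.9 in bottom and 887.8, 810.4 and 811.5 in top flanks, against 141.1, 163.4 and 180.2 in control flanks. The controls agreed closely, and 1 shaded and 1 lit array were as low as they were. The glycine-rich protein gene AT1G04800 had a shift of 1.49 log2, and of 0.33 without control 3, where its signal was 36.8.

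Pairs of neighbouring genes occurred among the higher members. AT3G57020 and AT3G57030, both of the strictosidine synthase-like family, lie 10 locus numbers apart. AT3G57030 measured 1360.3, 694.4 and 325.8 in shaded, 991.7, 751.0 and 695.7 in lit, 687.5, 621.2 and 801.8 in bottom and 931.6, 1038.1 and 1248.4 in top flanks, against 194.9, 700.8 and 131.9 in control flanks. Control 2 lay among the stimulated arrays and the other 2 controls below them all. AT3G57020 measured 316.3 to 1118.9 (median 559.2) over stimulated arrays, against 266.7, 238.6 and 359.6 in controls, with a shift of 0.96 log2, and only 1 lit array was under the highest control. AT2G39400 and AT2G39420, a pair of alpha/beta hydrolases related to monoacylglycerol lipases, had shifts of 1.27 and 1.32 log2, and AT2G39400 had 0.66 without control 2. AT5G28550 and AT5G28570 had 1.02 and 1.58; without control 1 AT5G28550 had 0.09, and 1.73 without control 3. Transcripts of related genes can bind the same probes, so such pairs may not be separate measurements.

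The other leading members on the higher side were measured less evenly. AT5G05320 measured 519.3 to 849.8 (median 680.2) over stimulated arrays, against 555.9, 143.7 and 159.9 in controls. Control 1 was among the stimulated arrays and the other controls were far below, so the shift of 1.57 log2 became 2.20 without control 1. AT5G28570 had 253.3 to 567.5 (median 408.3) over stimulated arrays, against 284.6, 281.5 and 31.3 in controls. Its shift of 1.58 log2 was 0.52 without control 3. LOV1 had 270.9 to 732.7 (median 424.1) over stimulated arrays, against 296.2, 47.4 and 377.3 in controls, and its shift of 1.45 was 0.51 without control 2. AT5G54630 had 437.1 to 790.5 (median 572.5) over stimulated arrays, against 69.8, 488.9 and 396.2 in controls. Its shift of 1.26 was 0.38 without control 1, which alone lay far below the rest. AT1G64270, AT1G04930, AT2G45750 (a methyltransferase family gene), AT1G26650 and AT4G02850 (phenazine-biosynthesis-like) had shifts between 1.37 and 1.58 log2, and in each of them stimulated and control arrays overlapped. AT1G04930 had 0.78 without control 2 and 2.34 without control 3, AT1G26650 had 2.15 without control 1, and AT4G02850 had 0.80 without control 3.

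The genes in this paragraph are single examples and belong to none of the gene lists. FHL, which helps carry phytochrome A into the nucleus, measured 261.3 to 509.6 (median 345.9) over stimulated arrays, against 316.8, 80.9 and 301.8 in controls, and only control 2 was below the stimulated range. Without control 2 its shift of 0.85 log2 was 0.20. The sugar transporter genes SWEET9 and SWEET14 had shifts of 1.11 and 0.68 log2. SWEET9 measured 419.4 to 740.0 (median 623.5) over stimulated arrays, against 434.8, 608.0 and 79.2 in controls. Here 2 controls lay within the stimulated range and control 3 far below it, without which the shift was 0.21. SWEET14 had -0.07 without control 2. MSRA5, a methionine sulfoxide reductase that repairs oxidised protein, had a shift of 0.86 log2, and of -0.01 without control 2. The glycosyltransferase genes UGT76D1 and UGT85A3 had 0.74 and 0.77, and 0.34 and 0.41 without control 1.

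The lower members include fewer named genes, and their control arrays were closer together. AT1G04660, a glycine-rich protein gene, had the largest least difference of the named ones. It measured 423.3, 137.3 and 338.7 in shaded, 291.4, 854.3 and 331.7 in lit, 229.8, 135.3 and 525.5 in bottom and 455.8, 803.6 and 199.9 in top flanks, against 1189.1, 1077.3 and 1331.0 in control flanks. Every stimulated array was below every control array, though stimulated replicates differed widely. The shift was -1.84 log2, with a pooled SD of 0.83, which makes the stimulated flanks 3.57-fold lower.

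AT1G25230, of the metallophosphoesterase family of which plant purple acid phosphatases are part, measured 2894.0, 1583.2 and 1916.2 in shaded, 2644.7, 1840.4 and 1571.1 in lit, 1336.9, 1344.5 and 1694.0 in bottom and 1295.2, 1579.3 and 1478.8 in top flanks, against 5352.4, 5202.4 and 2566.9 in control flanks. Control 3 lay below the highest stimulated arrays, 1 shaded and 1 lit. Its shift was -1.28 log2 (pooled SD 0.39) and was largest in bottom and top flanks, at -1.52 and -1.52. AT1G72020 had 1539.2, 1558.8 and 651.0 in shaded, 1483.1, 1095.2 and 1179.6 in lit, 1091.6, 736.3 and 1165.9 in bottom and 900.7, 1225.6 and 873.8 in top flanks, against 2227.9, 1716.3 and 2054.4 in control flanks. Its arrays did not overlap, and its shift was -0.87 log2. AT5G41060, of the DHHC family that attaches palmitate to proteins, had 208.8 to 614.5 (median 394.1) over stimulated arrays, against 857.0, 658.4 and 708.0 in controls. It did not overlap either, with a shift of -0.92 log2.

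For 27 of the 78 lower members (34.6%) all 12 stimulated arrays lay below all 3 control arrays, and 108 of 11368 probe sets (0.95%) did so. As on the higher side, the rule chose on the same arrays, so these shares are not comparable. The named ones among the 27 are AT1G04660, AT5G41060, AT1G72020, ATNTH1, AT5G57290, AT1G52300, AT5G47930, TBL36, AT1G10740, AT3G05910 and AT5G15950. ATNTH1, an endonuclease III that removes oxidised bases from DNA, had 712.5, 466.2 and 739.8 in shaded, 922.3, 656.1 and 751.5 in lit, 640.1, 777.5 and 674.7 in bottom and 741.2, 772.1 and 925.3 in top flanks, against 1180.1, 1156.2 and 1309.4 in control flanks. The shift was -0.75 log2 with a pooled SD of 0.23, one of the smaller spreads. AT5G15950, an S-adenosylmethionine decarboxylase of polyamine synthesis, had 621.2 to 1282.2 (median 1104.6) over stimulated arrays, against 1850.7, 1520.1 and 1746.9 in controls. Its groups stood apart, with a shift of -0.70 log2. AT3G05910, a pectin acetylesterase family gene, and TBL36, of the family that acetylates wall polysaccharides, had shifts of -0.96 and -0.80 log2, and TBL36 had -0.51 without lit array 3. The brightest of these probe sets has no symbol: 246390_at measured 4879.6 to 13230.2 (median 7906.4) over stimulated arrays, against 38710.9, 28355.9 and 21407.2 in controls, a shift of -1.78 log2 with no overlap.

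The remaining leading lower members were less even. NDB2, an alternative NADH dehydrogenase of mitochondria, measured 132.1, 138.1 and 124.0 in shaded, 329.6, 504.1 and 237.7 in lit, 454.8, 636.8 and 137.8 in bottom and 278.9, 435.1 and 383.9 in top flanks, against 309.5, 692.0 and 906.7 in control flanks. The shaded arrays and 1 bottom array were the lowest, and control 1 lay among the other stimulated arrays. AT5G53880 differed from the control by -1.74 and -1.69 log2 in shaded and lit flanks and by -0.72 and -0.81 in bottom and top flanks. AT4G02940, known as the RNA demethylase ALKBH10B, had 110.9 to 950.5 (median 496.5) over stimulated arrays, against 1178.9, 1035.3 and 410.3 in controls. Control 3 lay inside the stimulated range, and the shift of -0.87 was -1.35 without it. The related AT1G11780 was a higher member, at 1.10 log2, but 0.19 without control 1. AT5G05600, a 2-oxoglutarate-dependent oxygenase that oxidises jasmonate, had 94.0 to 1024.5 (median 337.3) over stimulated arrays, against 660.7, 424.5 and 592.5 in controls, and the stimulated arrays spread over both sides of them. AT4G24530 (O-fucosyltransferase family), AT5G35310, AT5G22310, AT1G42220, AT1G71840 and AT4G27590 had shifts between -1.06 and -0.77 log2 with overlapping arrays. That of AT1G71840, -0.79, was -0.30 without control 1 and -1.26 without control 3. HTB1, a histone H2B gene, had -0.69 log2, also with overlap.

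Of the lower members with 1 symbol, 4 code for proteins of the cytosolic ribosome, the machine that makes most of the cell's protein. Members with several symbols were not counted here. AT1G52300 (protein L37 of the large subunit) measured 1835.6, 1173.5 and 1596.8 in shaded, 666.0, 765.0 and 1274.6 in lit, 1768.5, 1055.0 and 788.8 in bottom and 957.4, 1038.9 and 1145.6 in top flanks, against 2208.9, 1919.2 and 2479.8 in control flanks. AT5G47930 (protein S27 of the small subunit) measured 1048.8, 1147.7 and 1015.6 in shaded, 1029.8, 1010.9 and 733.8 in lit, 1069.8, 905.0 and 669.6 in bottom and 736.6, 1064.9 and 755.1 in top flanks, against 1452.3, 1533.4 and 1648.8 in control flanks. Neither overlapped, and their shifts were -0.97 and -0.75 log2 with pooled SDs of 0.39 and 0.24. AT5G57290 (the acidic protein P3) measured 367.9 to 1152.4 (median 847.7) over stimulated arrays, against 1508.3, 1361.8 and 1464.9 in controls, again with no overlap. AT1G74270 (protein L35a) had a shift of -1.06 log2 but a pooled SD of 1.29, and its arrays overlapped. The higher members held 2 ribosomal genes, AT1G48830 (protein S7) at 1.10 and AT3G28500 (the acidic protein P2) at 0.78 log2. In both, control 2 alone was far below the other arrays, at 101.7 and 127.5 signal units, and without it the shifts were 0.41 and 0.19 log2.

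A list of 225 loci for such proteins, drawn up after the data were seen, had 130 probe sets with 1 symbol, of which 93 were past the brightness limit. Of these 93, 77 were below the control and 16 above, with a median shift of -0.33 log2. All 11368 probe sets had a median of -0.01, with 5884 below the control and 5484 above. The list's median was -0.19 in the shaded, -0.33 in the lit, -0.28 in the bottom and -0.39 in the top flanks. It stayed between -0.36 and -0.28 on leaving out any 1 of the 15 arrays. Over all probe sets in the same middle range of brightness the median was -0.0002. All 12 stimulated arrays were below all 3 controls for 9 of the 93 and above them for 0, where all probe sets past the limit gave 0.95% and 0.422%.

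**Figure D3:**
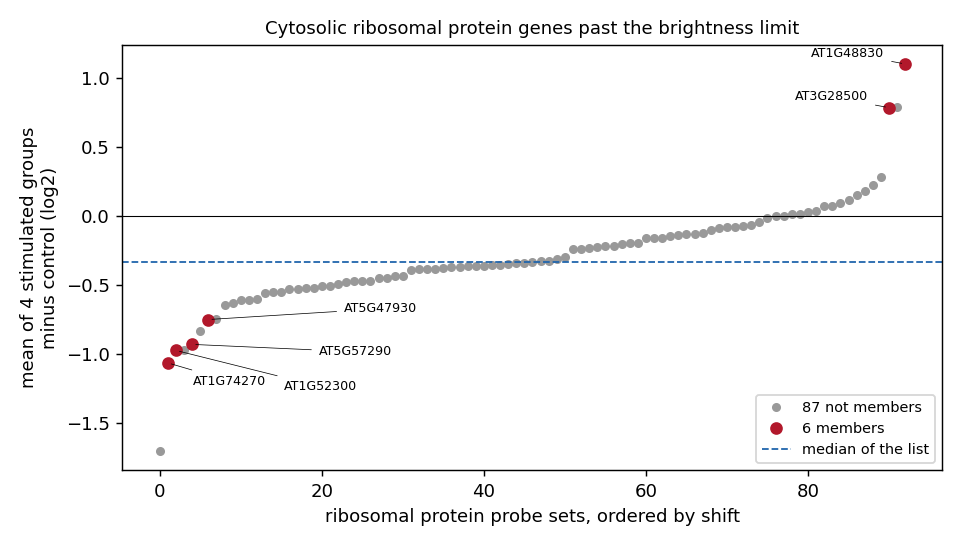
Shift in log2 of 93 single-symbol probe sets of cytosolic ribosomal protein genes, ordered by size. Red points are the 4 lower and 2 higher members among them, and the dashed line is the list's median, -0.33. Most points lie a little below 0, and the lowest, AT1G18540 at -1.70, did not meet the rule in all 4 groups.

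Other gene lists held almost no member. Of the lists for auxin, symbols of the cytosolic ribosome, jasmonate, touch and calcium, heat shock, flavonoids, tubulin and actin, other cell wall genes, glutathione and redox, abscisic acid and cold, cytochrome P450, translation factors, and brassinosteroid and gibberellin, none had a member among its tested probe sets. The cell wall list, for example, had 0 of 13, with a median of -0.02 log2. Of all probe sets 2.03% met the rule on the higher and 0.739% on the lower side before exclusions. At those shares lists this short would hold few or no members, so their counts say little. No probe set matched the aquaporin list. The list of light signalling and greening, which does not hold FHL, had 0 members of 17 tested, with 15 above the control and a median of 0.17 log2. The list of ubiquitin and proteasome genes had 0 of 19, with 14 below and a median of -0.19. Most symbols in the array's annotation are plain locus names, so these lists cover few of the genes they are named for. The members AT3G05910, TBL36 and AT5G05600, described above with wall or jasmonate roles, were outside them.

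The higher and lower members differed in brightness and spread. The rule chose higher members by a low control mean and lower members by a high one. A single stray low control array thus helps to make a higher member and works against a lower one. The control values below therefore follow in part from the rule, and are not comparable with those of all probe sets. The mean signal was above 1000 units for 11.7% of higher and 43.6% of lower members, against 27.5% of all probe sets past the limit. The median pooled SD was 0.61 log2 for higher and 0.45 for lower members, against 0.35 over all. Among higher members the 3 controls had a median SD of 0.99 and the stimulated groups one of 0.38. Among lower members these were 0.44 for stimulated groups and 0.26 for controls. A single control array lay more than 1 log2 below both others in 118 higher members (51.3%) and in 5 lower ones (6.41%), against 6.49% of all probe sets. The lowest control signal was under 100 units in 83 higher members (36.1%) and in no lower member, against 1.48% of all. Over all 230 higher members the lowest control was control 1 in 93, control 2 in 68 and control 3 in 69. Over all 11368 probe sets past the limit these were 4110, 3424 and 3834.

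**Figure D4:**
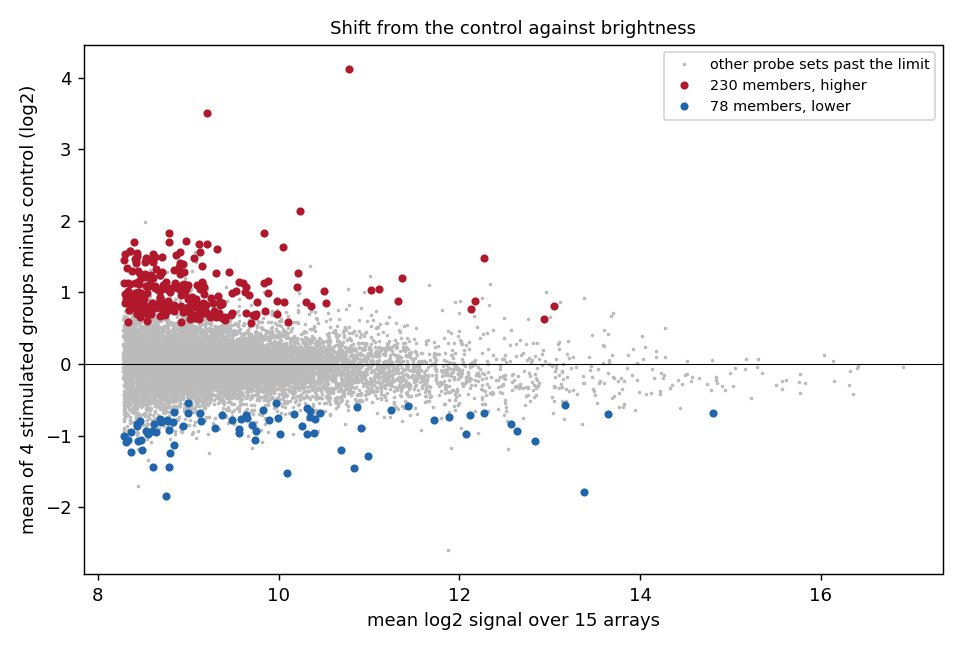
Shift in log2 against mean log2 signal for the 11368 probe sets past the limit; red points are the 230 higher and blue points the 78 lower members. Higher members crowd at the dim end, close to 8.28, and lower members reach further along the brightness axis.

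The members were set against the counts that the same rule gives when each stimulated group takes the place of the control. With the exclusions applied, 299 probe sets had the bottom flank at least 0.5 log2 below all 4 other groups, 201 the top flank, 179 the lit flank and 136 the shaded flank, and 230 the control. In the other direction 80 had the bottom flank above all other groups, 65 the top, 57 the lit and 38 the shaded flank, and 78 the control. Before the exclusions the control and the bottom flank had 84 (0.739%) and 83 (0.73%) on this side, so their order turned with the exclusions; in the first direction the bottom flank led both with and without them, at 301 before. The order was different by separation of all single arrays. Here 108 probe sets had all 3 controls above the other 12 arrays, against 80 for the bottom, 50 for the top, 48 for the lit and 27 for the shaded flank. On the other side 48 had all 3 controls below, against 56 for the bottom, 51 for the lit, 47 for the top and 28 for the shaded flank.

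**Figure D5:**
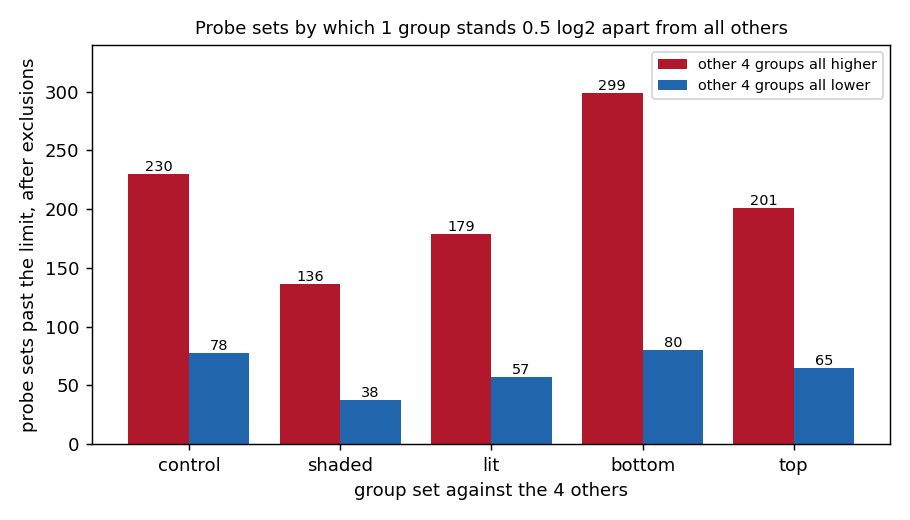
Number of probe sets in which 1 group's mean lies at least 0.5 log2 apart from the means of all 4 other groups; red bars count cases with the 4 others higher, blue bars with the 4 others lower. The control's bars of 230 and 78 are the members, and the bottom flank's bars, 299 and 80, are taller.

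Leaving out 1 control array replaced a good part of the list. Without control 1, 149 of the 230 higher and 46 of the 78 lower members still met the rule; without control 2 these were 168 and 61, and without control 3, 170 and 64. With all 3 omissions taken in turn 46 higher (20%) and 31 lower (39.7%) members were kept. With each of the 15 arrays left out in turn, 36 higher (15.7%) and 8 lower (10.3%) met the rule every time. The named ones of these 36 include AT3G09470, AT3G57020, AT3G57030, AT5G05320, AT5G22620, AT5G59100, scpl35, BZIP60, ALDH22A1, AT1G01800, AT1G12010, AT1G50650, AT2G45750, AT2G39420 and AT4G02850. The named ones of the 8 are AT1G04660, AT1G25230 and ATNTH1.

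A control array left out of the choice was itself not used by the rule, but the stimulated means it is set against were. An excess on the same side over all probe sets is thus partly built in. The check was added after the data were seen. Chosen without control 1, 2 or 3, higher members had the stimulated groups' mean above that array in 62.1%, 70.2% and 60.1% of cases, against 47.5%, 45% and 45.6% of all probe sets. For lower members the stimulated groups' mean was below that array in 75.8%, 86.8% and 82.9% of cases. Of all probe sets it was above that array in 47.5%, 45% and 45.6%, as given. It was below by at least 0.5 log2 in 50.5%, 57.5% and 39.5%, against 12%, 10.7% and 10.1% of all probe sets. For higher members the mean was above by as much in 31.4%, 31.5% and 23.9%, against 12.5%, 10.3% and 10.1%. The same check with a stimulated group in the place of the control and 1 of its arrays left out gave the same side in 47.0% to 68.5% on the higher side and 63.4% to 83.5% on the lower side. These ranges overlap with those of the controls.

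The comparisons among the stimulated groups did not enter the rule, although the rule favours genes whose group means are alike. The fit pooled the spread of all 5 groups, controls included. The rule favours higher members with a stray low control array, and their controls had a median SD of 0.99, against 0.38 in stimulated groups. That widens the standard errors of higher members, so the shares of them called below are partly set by the choice. All arrays were counted as independent. Between blue light and gravity, 2 of 230 higher (0.87%) and 2 of 78 lower members (2.56%) passed limma's adjusted threshold of 0.05, against 2.23% of the 11368 probe sets. Of these 4, 3 have no symbol. 267500_s_at, a higher member, measured 458.3, 546.9 and 613.6 in shaded and 521.0, 711.7 and 463.1 in lit flanks, against 936.2, 988.8 and 1228.2 in bottom and 1382.5, 742.8 and 1181.7 in top flanks; controls had 282.8, 314.4 and 345.6. Light minus gravity was -0.95 log2, with a standard error of 0.18 and a limma adjusted p of 0.011. The light flanks thus stood between the control and the gravity flanks. 263979_at, a lower member, measured 4029.0, 1742.2 and 1905.4 in shaded and 2520.5, 1668.4 and 1857.4 in lit flanks, against 1121.7, 986.2 and 1175.8 in bottom and 1499.9, 795.1 and 761.9 in top flanks, with 3750.6, 3656.8 and 5025.7 in controls. Light minus gravity was 1.08 log2 (standard error 0.21, limma adjusted p 0.014), so the larger drop below the control was again in the gravity flanks.

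The other 2 depended more on the fit. 253666_at, a higher member, had the largest shift of all, 4.13 log2. It measured 1035.3, 3569.8 and 294.1 in shaded and 1039.5, 4593.5 and 486.2 in lit flanks, against 10755.8, 2608.9 and 17235.3 in bottom and 12691.7, 3988.0 and 12858.3 in top flanks, with 91.2, 148.7 and 413.0 in controls. Its replicates differed more than 10-fold within the shaded flank. Light minus gravity was -2.82 log2 (standard error 0.65, limma adjusted p 0.032). Across the replicates its shaded arrays ran with the lit ones and its bottom arrays with the top ones. The fit counted all these arrays as independent, so the standard error may be too small. The lower member 247692_s_at lists 8 genes, so none is named; it had 0.97 log2 for light minus gravity, with a standard error of 0.21 and a limma adjusted p of 0.024. At an unadjusted limma p under 0.05 there were 10 higher (4.35%) and 12 lower members (15.4%), against 15.5% of all probe sets.

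Between the elongating flanks (shaded and bottom) and the opposite ones (lit and top), limma called 0 members, against 0.238% of all probe sets; 10 higher and 6 lower members had an unadjusted p under 0.05, against 8.63% of all. The smallest adjusted p was that of the higher member 248163_at, 0.058, at 1.28 log2. It passed limma's threshold among the brightest 30% (0.036) and with only the compared groups fitted (0.01). With a block for each replicate number within a stimulus it also passed (0.019). AT5G55180 was -1.41 log2, lower in the elongating flanks, with a limma adjusted p of 0.31. It passed with only the compared groups fitted (0.0063) and with the block (0.0071). Shaded against lit flanks also gave 0 members, and 0% of all probe sets passed limma's adjusted threshold; 8 higher and 3 lower members had an unadjusted p under 0.05, against 5.25% of all. Bottom against top flanks gave 0 members by limma, against 0.0352% of all; 10 higher and 4 lower had an unadjusted p under 0.05, against 7.49%. Whether the flank difference depended on the stimulus was asked by the interaction term, for which limma called 0 members and 0% of all; 1 higher and 1 lower member had an unadjusted p under 0.05, against 3.37%.

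On the control transcripts of the array, the 3 prime minus 5 prime difference is a measure of how far labelled copies extend along the RNA. With Brassica cRNA on Arabidopsis probes, its level also depends on how well each end matches its probes. It was -1.31 ± 0.19 log2 in stimulated arrays (SD, n = 12) and -1.09 ± 0.53 in controls (SD, n = 3). Stimulated minus control was -0.22, with a two-sided exact permutation p of 0.29. Control 1 stood apart at -0.51, whereas control 2 and control 3 had -1.22 and -1.55, within the stimulated range of -1.68 to -1.02. Without control 1, stimulated minus control was 0.07 (exact permutation p 0.593). Its part in the members' shifts was not tested.

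Members near the limit were separated from non-members by little. On the higher side 257512_at, AT1G30910 and AT1G17410 were just inside, each with a least difference of 0.50 log2, and 263826_at, AT3G04270 and 248779_at just outside, also at 0.50 when rounded. AT1G17410 turned to -0.01 without control 3 and had 1.28 without control 2; 257512_at had 0.25 without control 3, and AT1G30910 had 0.25 without control 2 and 0.90 without control 3. On the lower side SCPL45, 246447_at and AT5G15950 were just inside, at -0.50, -0.51 and -0.51, and AT3G07950, AT1G20950 and 265816_s_at just outside, at -0.50, -0.50 and -0.49. Second probe sets of a higher member were measured for 3 genes. For AT2G27900 these gave -0.03 and 0.56 log2, and a dim one of AT1G62760 gave 1.11, while the member probe set of AT1G62760 turned from 0.69 to -0.22 without control 1.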

How the data were processed

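RNA of each flank pool was hybridised to 1 Arabidopsis ATH1 array per sample. The deposited values are intensities, linear Affymetrix signals made by the authors with GCOS 3.0, per the submitters' processing notes, with program settings and array dates not given in the sources used here. Values were taken to log2 with no offset after 1 value at or below 0 was set to 0.4, the smallest positive signal. Gene names came from the array's annotation table, in which 13513 probe sets carry 1 symbol, 503 several and 8730 none. The series' design text calls the samples biological triplicates, and 3 arrays per group limit the precision.

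Members were found by the stated rule, and the members and gene lists were chosen with earlier results of these data known. Comparisons among stimulated groups used limma 3.58.1 in R 4.3.3 (5 group means on all 15 arrays, intensity trend) with Benjamini-Hochberg adjustment over 11368 probe sets at 0.05. This fit was run on simulated data with normal noise, independent between arrays. Such data cannot show how it behaves with stray control arrays or shared seedlings. The control transcripts were compared by an exact permutation test. Named genes are the 15 single-symbol members in each direction with the largest least difference, those passing a comparison among stimulated groups, members of the gene lists, and the 3 probe sets on each side of the limit; others are stated as chosen after their values were seen. Other normalizations, filters, limits and omissions of single arrays were tried.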

Additional observations from a re-analysis of the deposited data

Results flagged for a closer look

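Among the members, 4 differed between blue light and gravity stimulation by the test of that difference, with limma's adjusted p over all probe sets. If flanks of 1 stimulus shared seedlings, their arrays are not independent, and none of the alternatives below modelled this. The higher member 267500_s_at was -0.95 log2 for light minus gravity (adjusted p 0.011), and the call held in 20 of 20 alternatives, with adjusted p up to 0.036. The lower member 263979_at was 1.08 log2 (adjusted p 0.014), also held in 20 of 20, up to 0.047.

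The lower member 247692_s_at, which lists 8 genes, was 0.97 log2 (adjusted p 0.024) and held in 14 of 20 alternatives, up to 0.069. The higher member 253666_at was -2.82 log2 (adjusted p 0.032) and held in 10 of 20, up to 0.084. Each of these 4 probe sets shifted further from the control in both gravity flanks than in both light flanks. The next member by p, AT5G53880, did not pass, at -0.95 log2 (limma adjusted p 0.054). It went the other way, with the larger drop in the light flanks.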

How the results depend on the processing

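Membership depended on the limits. The counts of higher and lower members, 230 and 78, were 931 and 560 with no brightness filter, 79 and 47 among the brightest 30%, 347 and 163 at a shift of 0.4 log2 and 93 and 9 at 0.75. Leaving out single arrays gave 208 to 398 higher and 65 to 130 lower, the most without control 3. Quantile normalization gave 208 and 64 and centred arrays 197 and 101. Group medians gave 231 and 77, of which 112 and 43 were in the sets described. Of the genes named by rule, AT1G17410 alone turned sign, at -0.012 without control 3 and 1.28 without control 2, and 11 other values moved by more than the replicate SD. Of those named after their values were seen, SWEET14, MSRA5 and AT1G62760 turned sign without 1 control.

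Between light and gravity 4 members passed; 2 did with no filter and with no intensity trend, and 2 to 5 on leaving out single arrays, with 2 without shaded, lit, bottom or top replicate 3. For the elongating against the opposite flanks, 0 became 1 among the brightest 30% (248163_at) and 3 with only the compared groups in the fit (with AT5G55180 and 261438_at). Bottom against top became 1 with only the compared groups (261438_at). With the replicate number over all groups as a block, 4 members passed between light and gravity. The flank comparisons instead had a block for each replicate number within a stimulus. There 2 members (AT5G55180 and 248163_at) passed between elongating and opposite flanks and 1 (AT5G55180) between bottom and top. Same-numbered arrays deviated together with correlations of 0.04 to 0.15 for shaded with lit and -0.02 to 0.06 for bottom with top. The main fit did not pair them. The labels do not say whether same-numbered flanks of 1 stimulus came from the same seedlings. If they did, the light and gravity arrays are not all independent, and no alternative for that contrast modelled this. The 3 prime minus 5 prime difference, -0.22, was 0.071 without control 1 and -0.45 without control 3. The causes were not tested. Depth is not defined for arrays; dim signals limit the higher members most.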

Other observations

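Over the higher members, the median deviation from a probe set's own mean over the arrays lay between 0.14 and 0.34 log2 on each of the 12 stimulated arrays, and was -0.80, -0.59 and -0.51 on the 3 control arrays. Over the lower members it lay between -0.28 and 0.05 on stimulated arrays, and was 0.83, 0.66 and 0.62 on the controls. These values follow from the rule and are given for the evenness over arrays.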
